A study of Mus musculus with 12 samples.

Results

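Interferon-stimulated genes are the genes that cells switch on when an interferon binds its receptor, and they were followed here in mouse ovaries whose oocytes lack Mtor. The members were taken by gene symbol from the deposited expression table, and all 39 were found among its 24255 genes. By role they were 5 nucleic acid sensors, 5 transcription factors, 12 antiviral effectors, 10 members of the ISG15 system, PARPs and other induced proteins, 4 GTPases induced by interferon-gamma, and 3 genes of the immunoproteasome and peptide transport. The 5 CKO samples were whole ovaries of mice in which Cre driven by Gdf9, an oocyte gene, deleted Mtor in oocytes. The 7 WT samples were whole ovaries labelled wild type, and no transgene is named for them. All mice were C57BL/6 at an age of 6 months, and 46 h before collection they were given eCG at 5 IU (also labelled PMSG), a gonadotropin that stimulates follicle growth. Every cell of the ovary contributed RNA, including granulosa, stromal, vascular and immune cells, whereas Gdf9-Cre acts in oocytes. The labels do not tie samples to animals, so the p-values speak of the spread among these samples. A WT column could belong to either of 2 WT samples by its name and is called the unnumbered WT library. Matching all other columns by the sample descriptions leaves WT replicate 5 for it, but that number was not used in the analysis.

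Levels are given as FPKM, which scales the fragments of a gene by its transcript length and by the size of the library, so that genes can be set side by side. Depth is not given. From the steps between low values, relative depth differed 2.18-fold between libraries, and 1 fragment on a transcript of 1 kb was worth 0.315 to 0.687 FPKM. Fold changes are differences of mean log2(FPKM + 1), CKO over WT, so a change of 1 is a doubling and changes of low genes are understated. A gene entered the test, made with limma, when 5 or more of the 12 libraries held 1 FPKM or more, and p-values were adjusted over the 13168 genes that did. Mtor itself, summed over the whole gene, averaged 5.02 ± 0.499 FPKM in CKO and 4.7 ± 0.702 FPKM in WT ovaries (SD, n = 5 and 7), a log2 fold change of 0.08 ± 0.12 (SE, adjusted p = 0.709). Of 10 granulosa and oocyte marker genes 8 were tested, and all 8 were lower in CKO, with summed levels of 1231.9 to 2150.7 FPKM in CKO and 2796.3 to 5098.1 FPKM in WT libraries. Some libraries stood apart in other tissue markers. Ovgp1, a secreted protein of the oviduct, was at 252.4 and 81.9 FPKM in CKO replicates 2 and 3. It was at most 1.87 FPKM in the others. CKO replicates 1 and 5 had the highest sums of 15 macrophage markers, 4452.4 and 4694.1 FPKM. They also had the highest sums of 5 erythrocyte markers, 276.5 and 315.7 FPKM, followed by WT replicate 1 at 248.4 FPKM.

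Type I interferons (the alpha and beta families) bind a receptor made of IFNAR1 and IFNAR2 and activate a complex with STAT2 and IRF9 that binds a DNA element called ISRE. Type II interferon (interferon-gamma), made mainly by T and NK cells, binds IFNGR1 and IFNGR2 and acts through an element called GAS. The products of these genes detect viral nucleic acids, block steps of viral replication, degrade pathogen membranes and raise the display of peptides to T cells. Many are also expressed at a low resting level without infection, macrophages being a typical site.

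Promoters were available for 29 of the 39 members from a RefSeq table on GRCm38.p6, as windows of 300 bases from 250 before to 50 after a start site. They were searched on both strands for the ISRE core GAAANNGAAA (TTTCNNTTTC on the other strand) and for the GAS core TTCNNNGAA, which reads the same on both strands in its fixed bases. At least 1 promoter held an ISRE core in 16 of these 29 members (55.2%) and in 3.99% of all 27025 genes of the table. A GAS core was found in 10 members (34.5%) and in 9.55% of all genes. The cores overlapped each other in the promoter of Bst2. In 7 of the 29 members neither core lay in the window, which says nothing about elements outside it. Promoters of 7 members are printed here, to set the elements of members that rose beside those of textbook interferon targets that did not pass. Capitals mark GAS cores in Irf8, Irf1 and Psmb8 and ISRE cores in Gbp2, Rsad2, Isg15 and Ifit1. The windows lie at chr8:120736108-120736407 (plus strand) for Irf8, chr11:53769764-53770063 (plus) for Irf1, chr17:34197945-34198244 (plus) for Psmb8, chr3:142620413-142620712 (plus) for Gbp2, chr12:26456403-26456702 (minus) for Rsad2, chr4:156200769-156201068 (minus) for Isg15 and chr19:34640639-34640938 (plus) for Ifit1.
Irf8: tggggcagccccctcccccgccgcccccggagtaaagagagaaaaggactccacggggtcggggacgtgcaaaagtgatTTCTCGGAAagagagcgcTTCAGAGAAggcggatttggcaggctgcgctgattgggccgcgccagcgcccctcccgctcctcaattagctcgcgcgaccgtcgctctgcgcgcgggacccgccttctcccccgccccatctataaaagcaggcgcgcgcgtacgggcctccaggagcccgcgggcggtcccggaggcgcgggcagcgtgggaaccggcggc
Irf1: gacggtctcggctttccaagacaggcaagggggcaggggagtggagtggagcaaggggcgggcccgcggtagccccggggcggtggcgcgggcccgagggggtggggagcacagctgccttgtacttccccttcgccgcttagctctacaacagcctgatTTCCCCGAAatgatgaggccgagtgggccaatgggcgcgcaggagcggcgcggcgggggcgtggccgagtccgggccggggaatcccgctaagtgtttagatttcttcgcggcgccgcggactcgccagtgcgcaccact
Psmb8: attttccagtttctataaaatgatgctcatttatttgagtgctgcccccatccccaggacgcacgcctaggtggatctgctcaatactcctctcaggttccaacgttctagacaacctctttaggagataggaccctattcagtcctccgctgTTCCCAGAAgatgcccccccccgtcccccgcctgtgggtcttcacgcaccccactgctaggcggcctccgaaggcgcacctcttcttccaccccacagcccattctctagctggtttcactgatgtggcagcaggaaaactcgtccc
Gbp2: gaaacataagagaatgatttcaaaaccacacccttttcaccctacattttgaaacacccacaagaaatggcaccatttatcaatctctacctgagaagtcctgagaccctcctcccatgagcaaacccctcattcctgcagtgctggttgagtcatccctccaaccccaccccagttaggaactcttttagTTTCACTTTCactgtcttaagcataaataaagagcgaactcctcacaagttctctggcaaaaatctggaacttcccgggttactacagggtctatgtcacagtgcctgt
Rsad2: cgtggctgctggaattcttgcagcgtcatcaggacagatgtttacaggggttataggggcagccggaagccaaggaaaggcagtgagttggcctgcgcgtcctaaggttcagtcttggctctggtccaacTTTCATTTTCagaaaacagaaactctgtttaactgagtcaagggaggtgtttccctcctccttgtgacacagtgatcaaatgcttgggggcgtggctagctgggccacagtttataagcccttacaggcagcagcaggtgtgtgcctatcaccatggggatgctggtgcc
Isg15: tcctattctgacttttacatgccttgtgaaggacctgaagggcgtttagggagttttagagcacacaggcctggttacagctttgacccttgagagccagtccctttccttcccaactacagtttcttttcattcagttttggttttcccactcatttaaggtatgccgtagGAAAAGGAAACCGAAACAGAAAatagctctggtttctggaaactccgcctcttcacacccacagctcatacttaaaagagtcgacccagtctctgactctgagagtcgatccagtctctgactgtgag
Ifit1: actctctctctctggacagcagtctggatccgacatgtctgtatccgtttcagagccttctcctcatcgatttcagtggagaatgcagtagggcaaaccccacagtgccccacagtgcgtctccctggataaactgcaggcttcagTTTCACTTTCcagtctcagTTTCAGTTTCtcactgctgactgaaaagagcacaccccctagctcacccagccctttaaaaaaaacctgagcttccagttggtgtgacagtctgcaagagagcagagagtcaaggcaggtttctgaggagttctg
The first 5 of these promoters belong to members that were higher in CKO ovaries, and the last 2 to members that did not pass the test. Counted from the RefSeq start site of each window, the GAS cores begin at -171 and -153 in Irf8, at -90 in Irf1 and at -97 in Psmb8. The whole Psmb8 window lies inside the gene as annotated by GENCODE (chr17:34197721-34201454), after its first base. The ISRE cores begin at -59 in Gbp2, at -120 in Rsad2, at -104 and -85 in Ifit1, and at -78, -72 and -66 in Isg15, where they overlap in a run of GAAA repeats. Among the 8 members higher in CKO, 5 held a GAS core and 4 an ISRE core. Among the 20 tested members with a promoter that did not pass the test, 5 held a GAS core and 11 an ISRE core. The 8 had 13 windows and the 20 had 23, so the 8 had more windows per gene. By window, a GAS core lay in 38.5% for the 8 and 21.7% for the 20. An ISRE core lay in 38.5% and 47.8%.

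A small set of the members was higher in CKO ovaries, and none was lower. Of the 36 members tested, 8 rose, namely Irf8, Psmb8, Gbp2, Isg20, Rsad2, Irf1, Igtp and Trim30a, against 8.7% of all genes tested that rose. None fell, against 7.59% of all genes. The log2 fold change was above 0 in 31 of the 36 members, against 49.3% of all genes, and its median was 0.39 over the members and -0.01 over all genes. Only Irf8 had every CKO library above every WT library, against 4.09% of all genes, and no member had every CKO library below, against 3.65%. In whole-ovary RNA, more cells of a type and more RNA per cell cannot be told apart. Leaving out each of the 12 libraries in turn, between 5 and 12 members rose. The count was 5 without CKO replicate 1, CKO replicate 4, WT replicate 1 or WT replicate 4, and 12 without WT replicate 7. It was 6 without CKO replicates 2 and 3 together, and 5 without CKO replicates 1 and 5 together. Irf8, Psmb8, Gbp2, Isg20 and Rsad2 passed whichever 1 library was left out, and Rsad2 did not pass without CKO replicates 2 and 3 together (adjusted p = 0.067).

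**Figure D1:**
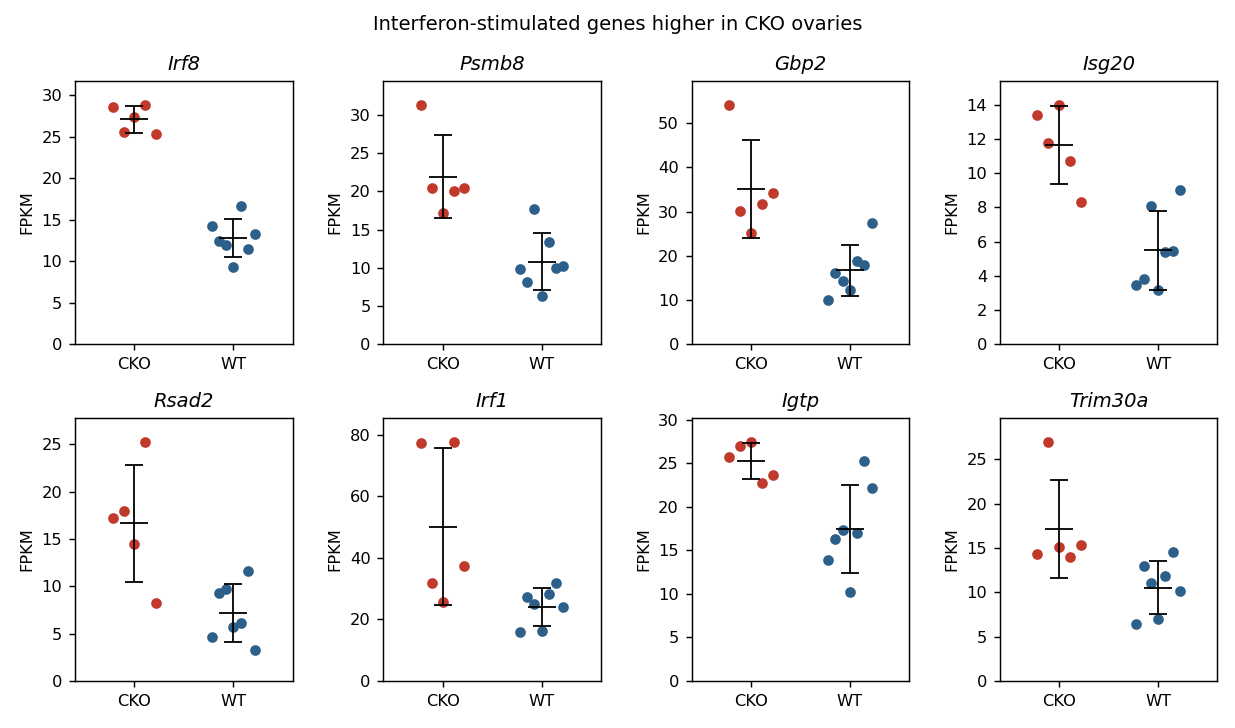
FPKM (y axis, from 0) of the 8 members higher in CKO ovaries, 1 point per library, CKO (red, n = 5) left of WT (blue, n = 7), with bars for the mean and SD. Irf8 is the panel whose groups do not overlap, at 25.3 to 28.8 FPKM in CKO and 9.28 to 16.6 FPKM in WT.

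Among the transcription factors, IRF8 directs the development of macrophages and dendritic cells and IRF1 drives many interferon-gamma targets. Irf8 (chr8:120736358-120756694, mm10, plus strand) stood at 28.5, 25.5, 27.3, 28.8 and 25.3 FPKM in CKO replicates 1 to 5, against a lowest of 9.28, a median of 12.4 and a highest of 16.6 FPKM in the 7 WT libraries. The groups did not overlap, and the log2 fold change was 1.05 ± 0.12 (SE, limma adjusted p = 0.000238). Irf1 (chr11:53770014-53778374, plus strand) was at 77.5, 31.8, 25.8, 77.8 and 37.5 FPKM in CKO replicates 1 to 5, against 15.8, 24.9 and 31.8 FPKM in WT (lowest, median, highest). CKO replicates 1 and 4 were far above the rest, while CKO replicates 2 and 3 lay inside the WT range. Its log2 fold change was 0.92 ± 0.27 (adjusted p = 0.0344), and the call was lost without CKO replicate 1 (adjusted p = 0.0916), CKO replicate 4 (0.0896), WT replicate 1 (0.0684) or WT replicate 4 (0.0671).

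The factors that carry the type I signal to ISRE elements did not pass. Irf9, the DNA-binding subunit of that complex, was at 26.7, 31.0, 28.4, 23.8 and 27.5 FPKM in CKO, against 13.8, 20.3 and 39.7 FPKM in WT (lowest, median, highest). The WT libraries enclosed all CKO values, and the log2 fold change was 0.3 ± 0.21 (adjusted p = 0.356). Stat2, its partner, lay between 12.8 and 15.8 FPKM in CKO and between 12 and 21.8 FPKM in WT (adjusted p = 0.875). Irf7, the factor that amplifies type I interferon production, lay between 3.33 and 12.8 FPKM in CKO and between 2.6 and 13.7 FPKM in WT. Its log2 fold change was 0.02 ± 0.35 (adjusted p = 0.977).

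Among the antiviral effectors, Isg20 and Rsad2 rose. Isg20 (chr7:78913424-78920396, plus strand) encodes an RNA exonuclease and was at 13.4, 11.8, 14.0, 10.7 and 8.32 FPKM in CKO, against 3.19, 5.37 and 9.03 FPKM in WT (lowest, median, highest). Of the CKO libraries only replicate 5 lay below the highest WT library, and the log2 fold change was 1.02 ± 0.22 (adjusted p = 0.00703). Rsad2 (chr12:26442746-26456452, minus strand) encodes viperin, which makes a chain-terminating nucleotide, and was at 17.2, 18, 14.5, 25.3 and 8.28 FPKM in CKO, against 3.32, 6.1 and 11.6 FPKM in WT. Here too replicate 5 was the only CKO library inside the WT range, and the log2 fold change was 1.12 ± 0.28 (adjusted p = 0.0153).

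The oligoadenylate synthetase genes and the IFIT genes, the standard readouts of type I interferon, did not pass. Oasl2, an oligoadenylate synthetase-like protein, was at 33.0, 29.6, 26.1, 33.4 and 25.7 FPKM in CKO, against 11.5, 23.7 and 40.3 FPKM in WT (lowest, median, highest). WT replicate 7 held that highest value, and without it the log2 fold change of 0.47 ± 0.24 (adjusted p = 0.201) became 0.63 (adjusted p = 0.0487, with 0.0487 to 0.349 over all alternatives). Oas2, which makes the messenger that activates RNase L, was at 4.01, 4.76, 4.09, 4.26 and 3.72 FPKM in CKO, against 1.26, 2.75 and 5.99 FPKM in WT (log2 fold change 0.42 ± 0.23, adjusted p = 0.24). Ifit3, of the IFIT family that binds foreign RNA, was at 16.6, 26.6, 24.6, 22.8 and 19.8 FPKM in CKO, against 6.78, 18.6 and 29.7 FPKM in WT (0.47 ± 0.32, adjusted p = 0.352). In all 3 genes the CKO values lay within the WT range. Bst2 encodes tetherin, which holds budding virions on the cell, and had the highest level of any member. It was at 230.0, 217.5, 268.6, 275.9 and 303.9 FPKM in CKO, against 181.7, 302.5 and 427.8 FPKM in WT, with a log2 fold change of -0.27 ± 0.19 (adjusted p = 0.372). Its CKO libraries all lay inside the WT range.

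Of the other effectors, Ifit1 lay between 12 and 17.3 FPKM in CKO and between 3.87 and 20.7 FPKM in WT (adjusted p = 0.498). Ifit2 lay between 4.4 and 10.2 FPKM in CKO and between 5.88 and 10.1 FPKM in WT (adjusted p = 0.711). Oas1a lay between 1.34 and 2.81 FPKM in CKO and between 0.535 and 3.54 FPKM in WT (adjusted p = 0.404). All 3 genotype pairs overlapped. The GTPase genes Mx1 and Mx2 and the synthetase gene Oas3 stayed below the filter and were not tested in the analysis above. Mx1 was at 0.982, 1.34, 0.201, 1.25 and 1.32 FPKM in CKO, against 0.179, 0.546 and 0.996 FPKM in WT. Mx2 did not exceed 1.85 FPKM in CKO and 1.28 FPKM in WT, and Oas3 did not exceed 0.661 FPKM in CKO and 0.781 FPKM in WT, where 2 libraries list it at 0. The lowest of these levels amount to a few fragments. When genes were tested without the filter, the adjusted p was 0.248 for Mx1 and 0.572 for both others.

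**Figure D2:**
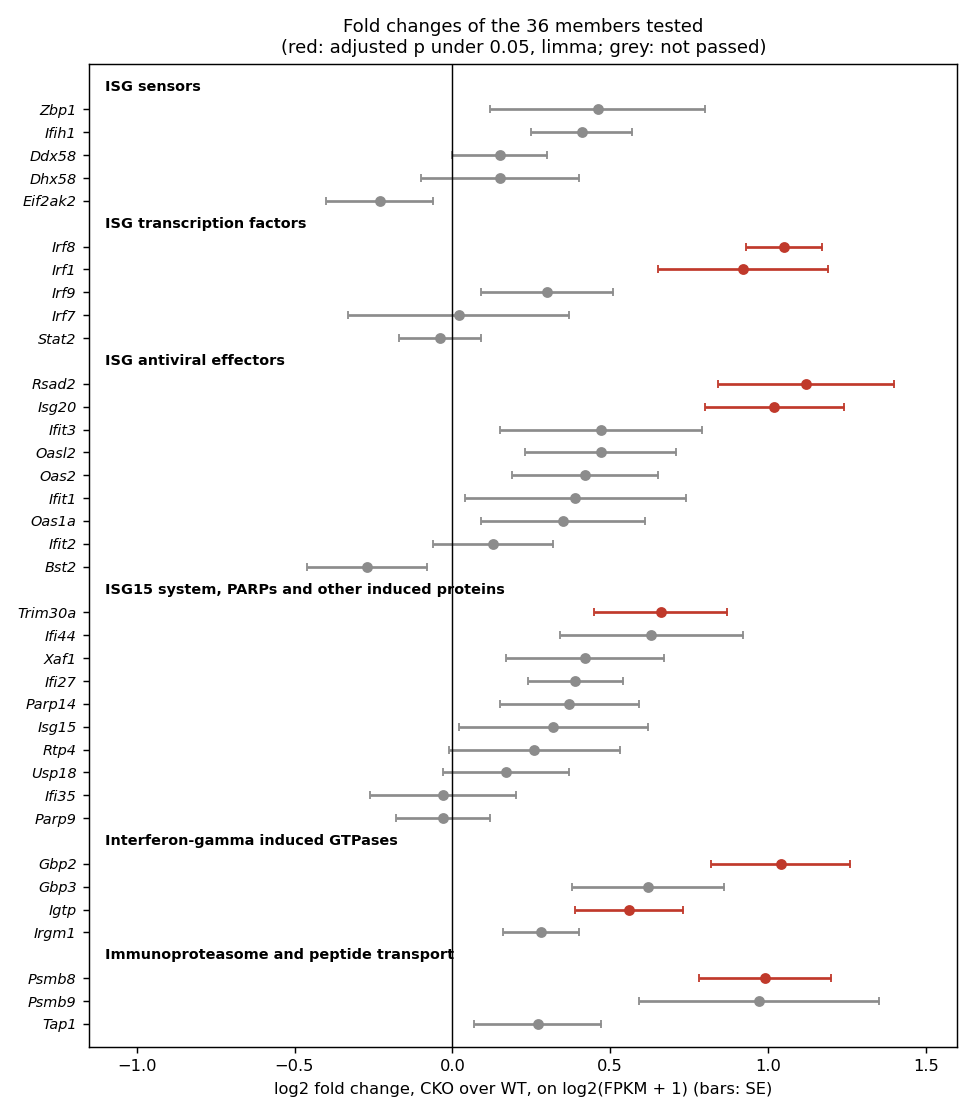
Log2 fold change, CKO over WT, on log2(FPKM + 1) (x axis, points; bars are standard errors) of the 36 members tested, grouped by role and ordered within each role. The 8 red points passed at an adjusted p under 0.05 (limma) and all lie right of 0. The 5 members left of 0 are grey.

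Among the ISG15 system, PARPs and other induced proteins, 1 of 10 members rose. Trim30a (chr7:104409025-104465193, minus strand), a TRIM protein that restrains inflammatory signalling in mice, was at 14.3, 27.0, 15.1, 14.0 and 15.3 FPKM in CKO, against 6.38, 11 and 14.5 FPKM in WT (lowest, median, highest). CKO replicate 2 stood far above the other CKO libraries, and WT replicate 7 was the WT library that reached into the CKO range. The log2 fold change was 0.66 ± 0.21 (adjusted p = 0.0433), and the call held in 3 of the 12 fits that left out a library, those without WT replicate 2, 6 or 7. Without CKO replicate 2 the change was 0.49 (adjusted p = 0.101). The near-identical neighbours of Trim30a can share its reads.

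Ifi27, a small membrane protein of mitochondria and the nuclear envelope, was at 129.9, 91.8, 135.5, 135.3 and 156.0 FPKM in CKO, against 75.9, 99.5 and 136.9 FPKM in WT (lowest, median, highest). CKO replicate 2 was the low library, and the log2 fold change was 0.39 ± 0.15 (adjusted p = 0.0896). The gene passed without CKO replicate 2 (0.51, adjusted p = 0.0228) and without WT replicate 7 (0.47, adjusted p = 0.029), with adjusted p of 0.0228 to 0.331 over all alternatives. Ifi44, a cytoplasmic protein named for its induction, was at 9.26, 12.8, 13, 8.92 and 6.09 FPKM in CKO, against 2.89, 5.53 and 12.6 FPKM in WT (0.63 ± 0.29, adjusted p = 0.168). Xaf1, a protein that promotes cell death, was at 4.66, 5.31, 4.06, 5.95 and 5.37 FPKM in CKO, against 1.35, 3.73 and 7.09 FPKM in WT (0.42 ± 0.25, adjusted p = 0.281). Parp14, an ADP-ribosyltransferase, was at 7.15, 9.63, 7.04, 9.52 and 8.31 FPKM in CKO, against 2.86, 6.37 and 8.94 FPKM in WT (0.37 ± 0.22, adjusted p = 0.287). Each of these 3 had overlapping groups.

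Isg15, the ubiquitin-like modifier that gives the system its name, lay between 29.3 and 45.8 FPKM in CKO and between 13.4 and 70.3 FPKM in WT, with a log2 fold change of 0.32 ± 0.3 (adjusted p = 0.525). WT replicate 7 held the highest value. Usp18, the protease that removes ISG15 and damps the receptor, lay between 2.61 and 3.72 FPKM in CKO and between 1.36 and 4.55 FPKM in WT (adjusted p = 0.616). Rtp4 lay between 30.9 and 42.2 FPKM in CKO and between 14.4 and 53.9 FPKM in WT (adjusted p = 0.561). In all 3 the WT range enclosed the CKO range. Parp9 lay between 10.1 and 14.6 FPKM in CKO and between 9.49 and 17.7 FPKM in WT (adjusted p = 0.921). Ifi35 lay between 7.52 and 11.7 FPKM in CKO and between 5.38 and 15.7 FPKM in WT (adjusted p = 0.938). The log2 fold change was -0.03 in both.

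The nucleic acid sensors, which set off interferon production, held no member that passed. Ifih1, which encodes MDA5, a sensor of long double-stranded RNA, was at 6.04, 6.5, 7.02, 6.45 and 7.17 FPKM in CKO, against 2.92, 4.87 and 6.48 FPKM in WT (lowest, median, highest). Of the CKO libraries 3 lay above every WT library, and the log2 fold change was 0.41 ± 0.16 (adjusted p = 0.106). Zbp1, a sensor of Z-form nucleic acid, was at 5.33, 4.9, 2.57, 1.51 and 1.59 FPKM in CKO, against 0.818, 1.63 and 5.44 FPKM in WT (0.46 ± 0.34, adjusted p = 0.396). Eif2ak2, which encodes the double-stranded RNA-activated kinase PKR, was at 7.83, 11.5, 13.3, 11.4 and 8.76 FPKM in CKO, against 9.01, 11.8 and 17.0 FPKM in WT (-0.23 ± 0.17, adjusted p = 0.402). The groups overlapped in both genes. Ddx58, which encodes RIG-I, lay between 8.41 and 13.3 FPKM in CKO and between 7.21 and 12.9 FPKM in WT (adjusted p = 0.551). Dhx58, which encodes the related helicase LGP2, lay between 1.6 and 2.34 FPKM in CKO and between 0.81 and 4.3 FPKM in WT (adjusted p = 0.748).

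Of the 4 GTPases induced by interferon-gamma, which act on the vacuoles of intracellular pathogens, Gbp2 and Igtp rose. Gbp2 (chr3:142620602-142638008, plus strand) was at 54.1, 30.1, 25.2, 31.8 and 34.3 FPKM in CKO, against 9.94, 16.1 and 27.4 FPKM in WT (lowest, median, highest). CKO replicate 1 was the highest library and CKO replicate 3 the only one inside the WT range, and the log2 fold change was 1.04 ± 0.22 (adjusted p = 0.00562). Igtp (chr11:58199556-58207591, plus strand) was at 25.7, 27.0, 27.5, 22.7 and 23.7 FPKM in CKO, against 10.2, 17.0 and 25.3 FPKM in WT. Its log2 fold change was 0.56 ± 0.17 (adjusted p = 0.0412). WT replicate 7 overlapped the CKO libraries, and the call held in 2 of the 12 fits that left out a library, those without WT replicate 7 or the unnumbered WT library. In the other 10 the adjusted p was 0.0544 to 0.0925. Igtp overlaps the related gene Irgm2 on the same strand, so their reads may be shared.

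Gbp3, a close relative of Gbp2, was at 18, 18.8, 16.5, 12.8 and 17.7 FPKM in CKO, against 5.78, 12.1 and 17.9 FPKM in WT (lowest, median, highest). It did not pass (0.62 ± 0.24, adjusted p = 0.0945), except without WT replicate 7 (0.74, adjusted p = 0.0381, with 0.0381 to 0.272 over all alternatives). Irgm1, a regulator of the family that is needed for autophagy of bacteria in mice, was at 57.1, 55.5, 51.4, 59.0 and 52.6 FPKM in CKO, against 34.2, 48.7 and 59.1 FPKM in WT (0.28 ± 0.12, adjusted p = 0.148). Every CKO value of Irgm1 exceeded 6 of the 7 WT libraries.

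The immunoproteasome trims proteins into peptides, and TAP1 carries these into the endoplasmic reticulum for loading on MHC class I. Psmb8 (chr17:34197721-34201454, plus strand), a catalytic subunit, was at 31.3, 20.5, 17.2, 20 and 20.5 FPKM in CKO, against 6.36, 9.93 and 17.7 FPKM in WT (lowest, median, highest). CKO replicate 3 was the only one that overlapped, with WT replicate 3, and the log2 fold change was 0.99 ± 0.21 (adjusted p = 0.00514). Psmb9, another catalytic subunit, was at 14.3, 12.3, 15.8, 4.58 and 4.79 FPKM in CKO, against 1.82, 3.1 and 10.4 FPKM in WT. Replicates 1 to 3 were high and replicates 4 and 5 lay within the WT range, and the log2 fold change of 0.97 ± 0.38 did not pass (adjusted p = 0.0996). Without WT replicate 7 it was 1.16 (adjusted p = 0.0416, with 0.00666 to 0.409 over all alternatives). Tap1 was at 12.7, 10.9, 8.84, 17.8 and 13.2 FPKM in CKO, against 6.66, 10.2 and 15.6 FPKM in WT (0.27 ± 0.2, adjusted p = 0.386). Psmb9 and Tap1 overlap on opposite strands, and whether strand was used in counting is not stated.

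The members were more alike among CKO than among WT libraries. The median SD of log2(FPKM + 1) over the 36 members was 0.23 among CKO and 0.5 among WT libraries, while over all genes it was 0.27 and 0.26. The SD was larger in WT for 32 of the 36 members (88.9%), against 48.6% of all genes. Outside the members it was larger in WT for 23 of 32 other genes induced by type I interferon and 6 of 7 endothelial markers. The same held for 7 of 9 genes of JAK-STAT signalling and its feedback and 9 of 14 other genes induced by interferon-gamma. For genes of nucleic acid sensing and its adaptors it was 12 of 19. The SD was larger in WT for 8 of 15 macrophage markers, 4 of 9 other MHC class I genes and 2 of 6 interferon receptor genes. Without each WT library in turn, the members' median SD in WT was 0.45 to 0.51. As a median deviation from each member's mean over the 12 libraries, the 5 CKO libraries stood at 0.17, 0.33, 0.22, 0.26 and 0.18. The WT libraries ran from -0.74 (WT replicate 4) and -0.64 (WT replicate 1) to 0.47 (WT replicate 7). Among the WT libraries, WT replicate 7 held the highest value of 27 members and WT replicates 4 and 1 the lowest of 18 and 14. Isg15 shows the pattern, at 70.3 FPKM in WT replicate 7 and 13.4 and 17.1 FPKM in WT replicates 4 and 1, while the other 4 WT libraries lay between 28.5 and 39.2 FPKM.

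**Figure D3:**
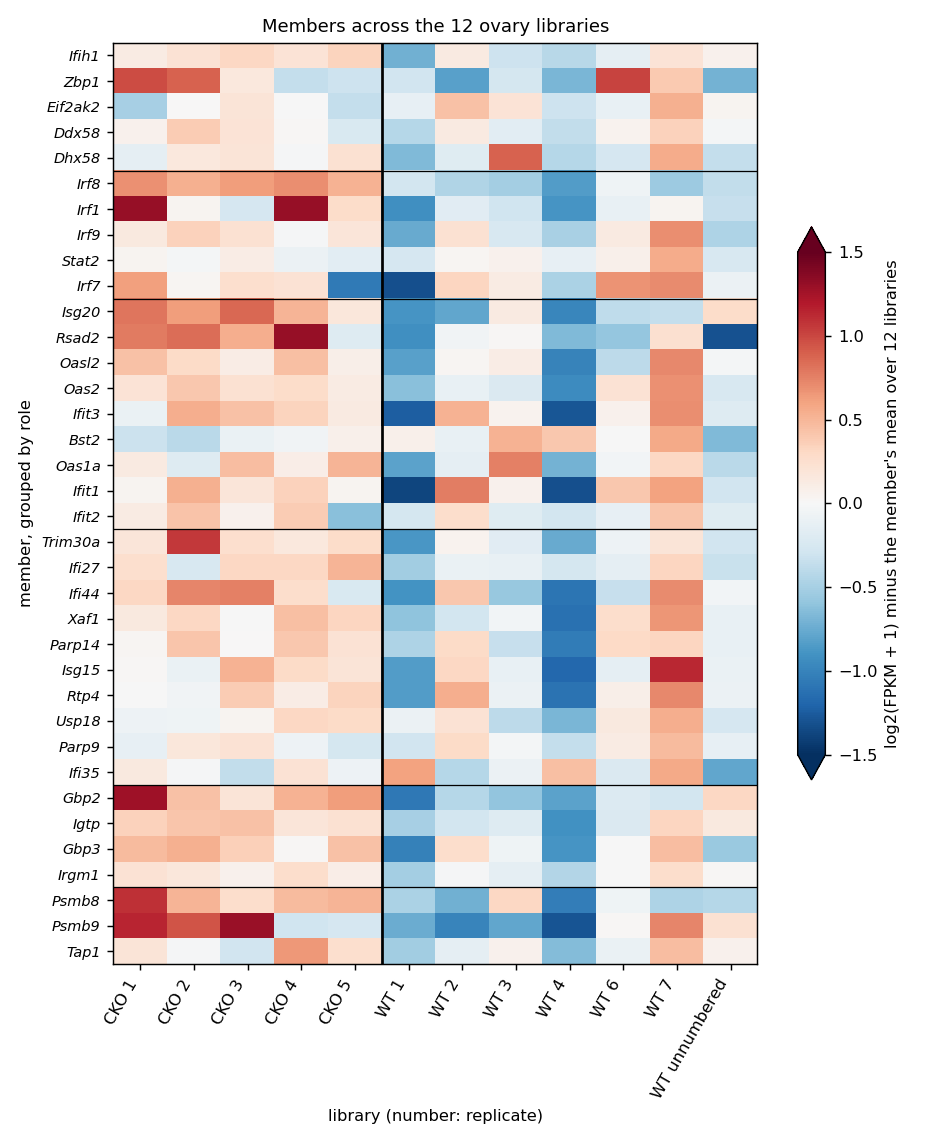
Each row is 1 of the 36 members tested, each column 1 library, CKO left of WT, and color gives log2(FPKM + 1) minus the member's mean over the 12 libraries (red above, blue below). WT replicates 1 and 4 are blue in most rows (median -0.64 and -0.74) and WT replicate 7 is red in most rows (median 0.47).

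The other genes of the interferon pathway were taken as 7 lists with 104 genes, of which 89 were tested, 29 rose and 2 fell, with a median log2 fold change of 0.46. The counts in these lists stand beside the 8.7% of all genes that rose and the 7.59% that fell. Among the ligands nothing reached the filter. The 4 interferon-alpha genes in the lists (Ifna1, Ifna2, Ifna4 and Ifna5), Ifnk, Ifnl2 and Ifnl3 are listed at 0 in all 12 libraries. Ifnb1, the interferon-beta gene, is listed at 0 in all but WT replicate 7, where it was at 0.659 FPKM. Ifng, the interferon-gamma gene, was at 1.52 FPKM in CKO replicate 2, 0.453 FPKM in CKO replicate 4 and 0.361 FPKM in WT replicate 7, and is listed at 0 in the other 9. Ifne, an interferon of the reproductive tract epithelium, was at 6.98 and 1.19 FPKM in CKO replicates 2 and 3 and is listed at 0 elsewhere. These are the libraries in which Ovgp1 was high. A listed 0 can be a failed estimate, since the proteasome activator gene Psme2 is also listed at 0 in all 12 libraries.

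Of the 6 receptor genes, 3 rose. Ifngr1, the ligand-binding chain of the interferon-gamma receptor, was at 68.2, 49.0, 50.9, 47.6 and 55.5 FPKM in CKO, against 27.8, 33.7 and 38.4 FPKM in WT (lowest, median, highest). The groups did not overlap, and the log2 fold change was 0.71 ± 0.11 (adjusted p = 0.000961). Il10rb, a chain shared by the interferon-lambda and interleukin-10 receptors, averaged 112.2 ± 22.2 FPKM in CKO and 69.4 ± 15.9 FPKM in WT (0.69 ± 0.17, adjusted p = 0.0115). The Il10rb call was lost without CKO replicates 2 and 3 together (0.52, adjusted p = 0.0904) and with an exact Wilcoxon test (adjusted p = 0.0686). Ifnar2, a chain of the type I receptor, averaged 41.1 ± 5.89 FPKM in CKO and 30.8 ± 4.8 FPKM in WT (0.41 ± 0.13, adjusted p = 0.038). Ifnar2 passed in 5 of the 12 fits that left out a library, and in the 7 others the adjusted p was 0.0612 to 0.0998. The partner chains did not pass. Ifnar1 averaged 23.6 ± 2.43 FPKM in CKO and 24.5 ± 1.62 FPKM in WT (adjusted p = 0.742), and Ifngr2 70.3 ± 10.4 FPKM in CKO and 62.2 ± 4.44 FPKM in WT (adjusted p = 0.278).

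Among 9 tested genes of JAK-STAT signalling and its feedback, 2 rose. Stat3, the main factor of interleukin-6 type cytokines, averaged 52.5 ± 7.12 FPKM in CKO and 36.7 ± 6.21 FPKM in WT (0.51 ± 0.13, adjusted p = 0.0128), and did not pass without CKO replicates 1 and 5 together (0.5, adjusted p = 0.0633). Socs3, a STAT3-induced feedback inhibitor, was at 249.1, 172.0, 211.7, 365.3 and 147.4 FPKM in CKO, against 31.4, 119.3 and 148.8 FPKM in WT (1.13 ± 0.34, adjusted p = 0.0358). The Socs3 call was lost without CKO replicate 1, 3 or 4 or WT replicate 1 or 4, with adjusted p of 0.05 to 0.0928.

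Of 19 tested genes of nucleic acid sensing and its adaptors, 6 rose, the first by p being Tlr4 and Tmem173. Another of the 6, Aim2, reached 1 FPKM in 2 of the WT libraries and entered the test mainly through CKO. Tlr4, the receptor for bacterial lipopolysaccharide, was at 7.7, 6.73, 7.0, 8.34 and 7.63 FPKM in CKO, against 2.94, 4.19 and 5.69 FPKM in WT (0.69 ± 0.13, adjusted p = 0.00335). The groups did not overlap. Tmem173, which encodes the DNA-sensing adaptor STING, was at 11.5, 7.07, 9.95, 15.2 and 11.7 FPKM in CKO, against 4.54, 5.19 and 7.21 FPKM in WT (0.85 ± 0.17, adjusted p = 0.00343). CKO replicate 2 was the only one inside the WT range.

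Of 32 tested further genes induced by type I interferon, 9 rose and 1 fell. Epsti1, an interferon-induced gene of macrophages and stroma, was at 8.93, 8.76, 7.15, 5.92 and 6.67 FPKM in CKO, against 1.35, 3.42 and 3.9 FPKM in WT (1.16 ± 0.2, adjusted p = 0.00176). Ifitm3, which blocks viral entry, was at 737.0, 341.9, 493.4, 462.4 and 452.3 FPKM in CKO, against 167.1, 234.2 and 336.8 FPKM in WT (1.0 ± 0.2, adjusted p = 0.00375). In both genes every CKO library lay above every WT library. Daxx, a histone chaperone, was the gene that fell, averaging 14.3 ± 2.56 FPKM in CKO and 18.4 ± 1.55 FPKM in WT (-0.35 ± 0.11, adjusted p = 0.0497). That call held in 2 of the 12 fits that left out a library, with adjusted p of up to 0.115 in the others.

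Of 14 further genes induced by interferon-gamma, 4 rose and none fell, and all 14 had a log2 fold change above 0. Cxcl9, a chemokine that attracts T cells, was at 4.04, 4.0, 5.57, 4.64 and 1.4 FPKM in CKO, against 0.132, 0.66 and 1.14 FPKM in WT. The groups did not overlap (1.48 ± 0.25, adjusted p = 0.00148), and since 2 of the WT libraries reached 1 FPKM, the gene passed the filter mainly through CKO. Tgtp1, a GTPase of the Igtp family in mice, was at 4.5, 4.3, 4.82, 4.64 and 4.71 FPKM in CKO, against 1.37, 2.36 and 2.66 FPKM in WT (0.81 ± 0.14, adjusted p = 0.00177). Its groups did not overlap either. Tgtp1 has a near-identical copy, Tgtp2, so its reads may be split.

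Of 9 further genes of MHC class I presentation, 5 rose and 1 fell. H2-D1, a class I heavy chain, was at 1018.9, 469.0, 625.5, 669.2 and 698.3 FPKM in CKO, against 219.2, 313.2 and 347.5 FPKM in WT (1.2 ± 0.17, adjusted p = 0.000621). B2m, its light chain, was at 1616.1, 865.6, 1170.8, 1185.8 and 1154.5 FPKM in CKO, against 371.1, 497.7 and 692.5 FPKM in WT (1.16 ± 0.18, adjusted p = 0.000998). In both genes the CKO libraries lay above all WT libraries. Calr, a chaperone that helps to load peptides, fell, averaging 298.3 ± 34 FPKM in CKO and 373.8 ± 25.5 FPKM in WT (-0.33 ± 0.1, adjusted p = 0.0381). The call on Calr held in 3 of the 12 fits that left out a library, with adjusted p of up to 0.0758 in the others.

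**Figure D4:**
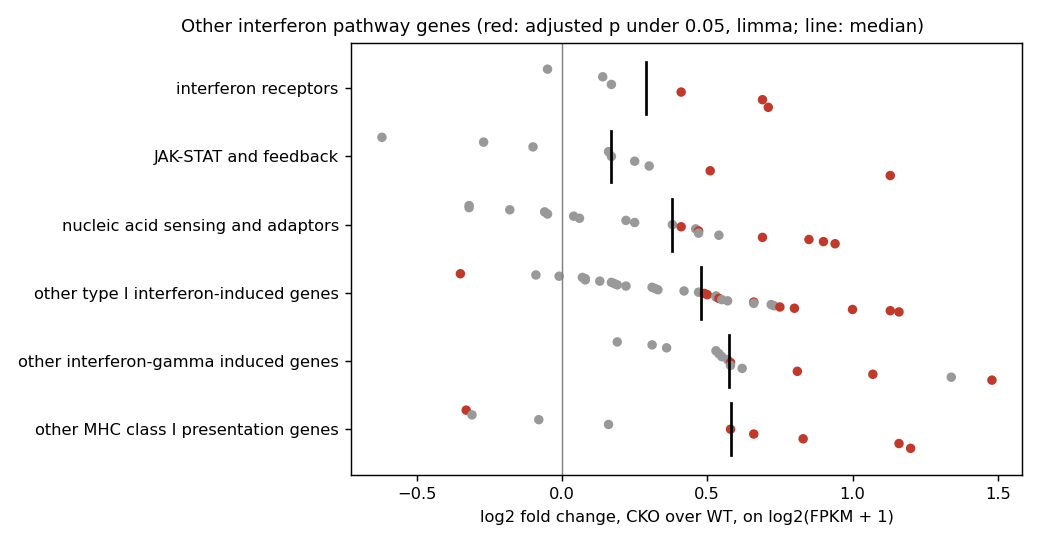
Log2 fold change, CKO over WT, on log2(FPKM + 1) (x axis) of the 89 other interferon pathway genes tested, 1 point per gene, in 6 lists (rows), with a black line at each list's median. Red points passed at an adjusted p under 0.05 (limma), 29 to the right of 0 and 2 to the left.

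Macrophage markers and some dendritic cell and T and NK cell markers moved in the same direction. Of 15 macrophage markers 10 rose and none fell, against 8.7% and 7.59% of all genes tested. Their summed level was 1639.2 to 4694.1 FPKM in CKO and 487.5 to 1527.7 FPKM in WT libraries. The dendritic cell markers summed to 26.2 to 33.6 FPKM in CKO and 15.7 to 25.5 FPKM in WT. Of the 6 tested 3 passed (Itgax, Xcr1 and Cd209a), but these reached 1 FPKM in 1 WT library each and entered the test through CKO. Zbtb46, Clec9a and Batf3, present in both genotypes, did not pass. All 6 overlapped between the genotypes. The T and NK cell markers summed to 16 to 33.1 FPKM in CKO and 2.49 to 7.44 FPKM in WT. Of the 6 tested 3 passed (Cd3e, Cd4 and Klrb1c), and since these reached 1 FPKM in 1 to 3 of the WT libraries, they too entered the test mainly through CKO. Neither of the 2 tested B and plasma cell markers passed (sums of 2.26 to 6.71 FPKM in CKO and 1.4 to 7.2 FPKM in WT), and their defining factor Pax5 is listed at 0 in all libraries. Neither of the 2 tested neutrophil markers passed (2.89 to 48.2 FPKM in CKO and 1.81 to 18.7 FPKM in WT), and Mpo is listed at 0 in all. None of 4 tested erythrocyte markers passed (13 to 315.7 FPKM in CKO and 19.4 to 248.4 FPKM in WT). Of 7 endothelial markers 2 rose (304.4 to 416.5 FPKM in CKO and 200.2 to 356.4 FPKM in WT). The oviduct list summed to 1.54 to 260.2 FPKM in CKO and 0.331 to 1.66 FPKM in WT, with Krt5 listed at 0 in all. The part of these cells in the difference between genotypes was not tested.

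The library order within genotypes was not the same for the members and the macrophage markers. The macrophage score, the mean log2(FPKM + 1) of the 15 markers, was 5.87, 4.88, 4.93, 5.21 and 5.57 in CKO replicates 1 to 5, and ran from 3.5 (WT replicate 1) to 4.85 (WT replicate 6). WT replicate 7, the highest of the 12 libraries over the 36 members at 0.47, had a score of 4.29, below all CKO libraries. Its median deviation was 0.56 over the members that did not pass and -0.11 over those that rose. Over those that rose, which were picked for being higher in CKO, the CKO libraries stood at 0.27 to 0.79. WT replicates 1 and 4, the lowest for the members, also had the lowest scores, at 3.5 and 3.77. The score did not overlap between CKO and WT libraries, so a difference by genotype and one by macrophage marker level cannot be told apart here.

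**Figure D5:**
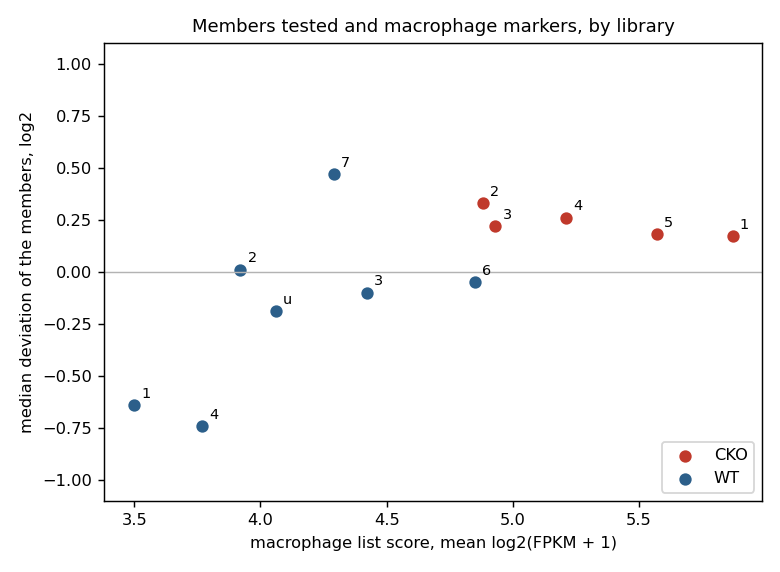
Median deviation of the 36 members tested from their mean over 12 libraries (y axis, log2) against the macrophage score, the mean log2(FPKM + 1) of 15 markers (x axis), with 1 point per library (CKO red, WT blue, numbers are replicates, u is the unnumbered WT library). WT replicate 7 lies highest at 0.47, with a score of 4.29, below every CKO library, and WT replicates 1 and 4 lie lowest on both axes.

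The authors' deposited table, made with another test, puts 10 members at a q-value under 0.05, all of them higher in CKO. These include all 8 members that rose here, together with Ifi44 and Gbp3. Of the other pathway genes called and named here, Ifngr1, Il10rb, Stat3, Socs3, Tlr4, Tmem173, Epsti1, Ifitm3, H2-D1 and B2m are also under 0.05 there. Tgtp1 (q = 0.728), Ifnar2 (0.134), Daxx (0.16), Calr (0.176), Cxcl9 and Aim2 are not.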

How the data were processed

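Whole-ovary polyadenylated RNA of 5 CKO and 7 WT samples was sequenced as paired-end libraries, and per the labels the authors aligned reads to mm10 with TopHat2 2.0.13 and computed and normalized FPKM with Cufflinks 2.2.1. The deposited log2 fold change column and those of p-values and q-values are the authors' own, from Cuffdiff. Its direction is CKO over WT (tolerance 0.01, 99.9% of 13045 genes), whereas its name has the order the other way round. No source used here states the annotation, the scaling or whether strand was used.

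Genotypes come from the sample titles, and columns were matched to samples by name. From the deposited FPKM, log2(FPKM + 1) was tested with limma 3.58.1 in R 4.3.3 (trended empirical Bayes, genotype as the only term, two-sided). Genes with at least 1 FPKM in at least 5 libraries entered the test (13168), p-values were adjusted by Benjamini-Hochberg, and 0.05 was the threshold. The procedure was tested on simulated data. Libraries had 14945 to 16083 genes above 0 and upper quartiles of 12.9 to 13.2 FPKM. What 1 fragment is worth was read from 77 single-transcript genes. Among genes under 1 FPKM in all libraries and above 0 in several, values were scaled by relative depth. Of those above 0, 90.7% lay within 0.1 of a whole multiple of the gene's lowest, which is itself counted. Gene positions are those of GENCODE on mm10, and promoters those of RefSeq on GRCm38.p6.

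The members and lists were chosen with earlier results of these data known. Values are given for every member that passed and then for members in order of p until 24 are described, and of each pathway list for the 2 tested genes with the smallest p, beside fixed receptor and ligand genes. The result for 1 gene that this rule names is not reported here. Ifne, Ovgp1, Psme2, Aim2, Daxx and Calr were named after their values were seen. Alternatives were other pseudocounts, filters, scalings, an exact Wilcoxon test, array weights, a replicate block and libraries left out.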

Additional observations from a re-analysis of the deposited data

Results flagged for a closer look

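Of 72 groups of libraries examined (36 members in CKO and in WT, on log2(FPKM + 1)), 2 held a library far from the others by Dixon's criterion at 95%, which chance alone gives in about 1 of 20 groups. Trim30a was at 27 FPKM in CKO replicate 2, while the other 4 CKO libraries lay between 14 and 15.3 FPKM, a gap of 0.869 of the group's range. Stat2 was at 21.8 FPKM in WT replicate 7, while the other 6 WT libraries lay between 12 and 15.3 FPKM, a gap of 0.599 of the range.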

How the results depend on the processing

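Irf8, Psmb8, Gbp2 and Isg20 passed under every alternative run, Rsad2 under all but the exact Wilcoxon test and the fit without CKO replicates 2 and 3 together, and no member fell under any. Members that rose numbered 8, but 5 with no filter on low values, 4 with an exact Wilcoxon test, 5 without CKO replicates 1 and 5 together, and 5 to 12 without each library in turn. Over all genes 1145 rose and 999 fell, against 737 and 646 with the Wilcoxon test, 756 and 622 with the replicate block, 702 that rose without CKO replicates 1 and 5, and 893 to 1200 that rose and 737 to 1106 that fell without each library. Of the other pathway genes 29 rose, against 19 with the Wilcoxon test, 16 without CKO replicates 1 and 5, 17 without CKO replicate 1 and the unnumbered WT library, and 19 to 33 without each library. Of them 2 fell, against 1 with no filter, quantile normalization, the Wilcoxon test, array weights or without CKO replicates 2 and 3, and 0 with the replicate block, with its 8 libraries and no block, without CKO replicates 1 and 5, or without CKO replicate 1 and the unnumbered WT library (0 to 2 without each library). The members' median log2 fold change was 0.26 to 0.49 without each library. The cause of these shifts was not tested.

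The replicate block used 8 libraries with shared numbers (4 pairs) and left out the unnumbered WT library, which was given no number. With the block 9 members rose, and 9 in the same libraries without it, a fit that was added after seeing the data. With the block Ifi44 (1.05, adjusted p = 0.0252) and Psmb9 (1.72, adjusted p = 0.00666) passed and Irf1 (adjusted p = 0.108), Tlr4 (0.0657) and Socs3 (0.0526) did not. In those 8 libraries without the block Ifi44 (0.0438), Psmb9 (0.00784) and Oas2 (0.0473) passed, and Irf1 (0.0553), Trim30a (0.0569) and Ifnar2 (0.0584) did not. The labels do not say that equal numbers pair samples. Deviations of same-numbered libraries correlated at -0.0328, 0.0901, 0.0396 and -0.071. None of these 4 CKO libraries correlated best with the WT library of its own number. With so few pairs, and libraries that differ in tissue markers, this cannot exclude a pairing. Members with changes near 0 turned sign. Irf7 (0.02) was -0.007448 with array weights, -0.06611 without CKO replicates 2 and 3, -0.144 without CKO replicate 1 and the unnumbered WT library, and -0.1994 to 0.2866 without each library. Parp9 (-0.03) was 0.1422 with the replicate block, 0.1422 in its libraries without the block, 0.09086 without CKO replicates 1 and 5, and -0.09107 to 0.04784 without each library. Stat2 (-0.04) was 0.0804 with the block, 0.0804 without it, and -0.08628 to 0.05003 without each library. Ifi35 (-0.03) was 0.08039 without CKO replicates 2 and 3 and -0.1676 to 0.06403 without each library. The receptor gene Ifnar1 (-0.05) was 0.00308 with the block and without it in those libraries, 0.04103 without CKO replicates 1 and 5, and 0.005239 without CKO replicate 1 and the unnumbered WT library.

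Depth is known only as a ratio between libraries, so no counting interval is given. The lowest values of members under 1 FPKM rest on a few fragments. With 5 and 7 libraries, a change that did not pass is not shown to be absent.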
